A study of Mus musculus with 2 samples.

Results

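The genes described here are the amino acid response genes, the targets of the transcription factor ATF4 together with the kinases, phosphatase and partner factors that control it. They were taken by name from a list of 35 genes, and 34 of these had at least 1 probe set annotated with that gene symbol alone, out of 18193 genes measured in that way. Pycr1, which encodes a proline synthesis enzyme, was not analysed here. Each gene is represented by the probe set whose signal, averaged over both arrays, was highest, and its other probe sets are given as a check.

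ATDC5, a mouse chondrogenic cell line, was starved of serum and treated for 30 min with 10 µg/ml cycloheximide (CHX), which blocks protein synthesis. The cells then received PBS, as the control, or recombinant human Nell-1, a secreted osteogenic glycoprotein, at 100 ng/ml for another 30 min. Both groups therefore carry serum starvation and CHX, and each is 1 Affymetrix mouse array, CHX+PBS and CHX+Nell-1, with no replicate. The series was designed to find genes that respond to Nell-1 without new protein being made. Because the control also carries CHX, no array shows the genes without it.

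The amino acid response begins when a shortage of amino acids or stress in the endoplasmic reticulum activates a kinase that phosphorylates the translation factor eIF2. General translation then slows, while the Atf4 mRNA is translated better, and the ATF4 protein switches on genes that import and make amino acids. ATF4 binds as a dimer, often with a C/EBP factor, at a composite site known as the C/EBP-ATF response element. In chondrocytes and osteoblasts ATF4 is known for supporting the heavy amino acid demand of matrix synthesis. Since ATF4 acts as a short-lived protein, its targets normally depend on continuing translation.

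The composite site was looked for in the members' promoters, since it is the sequence by which many of them are known to be regulated. The letters TGATGNAA, the core of the element, were searched on both strands of RefSeq promoter windows on GRCm38.p6, from 250 bases before to 50 bases after each start. Of 30 members with a window, 8 held a match, or 26.7%, against 4.51% of 27025 genes with a window and 3.97% of 32851 windows. The stretches below are written along the gene's own strand, with the match in capitals. A match reading TTNCATCA is the element on the other strand.
Asns: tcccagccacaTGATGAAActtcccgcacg
Slc7a11: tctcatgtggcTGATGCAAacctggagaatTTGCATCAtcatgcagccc
Chac1: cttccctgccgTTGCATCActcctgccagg
Nupr1: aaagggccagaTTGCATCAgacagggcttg
Slc1a4: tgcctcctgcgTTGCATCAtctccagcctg
Vldlr: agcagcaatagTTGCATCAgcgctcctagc
Trib3: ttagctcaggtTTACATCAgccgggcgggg
Pycr1: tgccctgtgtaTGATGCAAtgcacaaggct

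The Asns stretch lies at chr6:7693214-7693243 on the minus strand, with the match beginning 23 bases before the start. Slc7a11 (chr3:50443642-50443690, minus) was the member with a pair of matches, beginning 66 and 47 bases before the start in opposite orientation. Chac1 (chr2:119351038-119351067, plus) had its match 193 bases before the start, Vldlr (chr19:27216809-27216838, plus) 200 bases, and Nupr1 (chr7:126625562-126625591, minus) 110 bases. Slc1a4 (chr11:20332699-20332728, minus) had it 4 bases before the start, and Pycr1 (chr11:120643833-120643862, minus) 103 bases before. In Trib3 (chr2:152344028-152344057, minus) it began at base 15 of the transcript. These are matches of letters, not measured binding, and the other 22 members with a window lack these letters in that window only.

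The measure throughout is the MAS5 signal, an intensity per probe set on a linear scale, and the log2 ratio of signals, CHX+Nell-1 over CHX+PBS. With 1 array per group, no test was possible, and a ratio compares 2 RNA samples. The yardsticks were as follows: the 1.5-fold filter that the submitters state, and the robust SD of the log2 ratio (scaled from the median absolute deviation) among probe sets of similar signal, in 10 equal bins. That SD was 0.21 in the brightest bin and 0.62 in the bin from 64.3 to 121, and it contains real differences as well as noise. All 34 members lay above the median signal of 64.3, and 22 of them in the brightest bin, where ratios scattered least. Signals of different probe sets cannot be ranked as transcript levels.

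Across the arrays the members differed little, and 1 of 34 reached 1.5-fold. That gene was Cth, higher with Nell-1, and no member was lower by that much. Among 11600 genes above the median signal, 12.1% passed 1.5-fold either way, 529 (4.56%) higher and 874 (7.53%) lower, or 671 and 735 after median centring. Among all 18193 genes 32.1% passed, and among the 2925 genes in the brightest bin 2.19%. The 22 members in that bin included none past 1.5-fold. A share of 1 in 34 does not set the members apart from these backgrounds.

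The median log2 ratio over the members was 0.07, with 22 above 0 and 12 below. The same median was -0.03 over genes above the median signal, of which 45.8% lay above 0, and -0.01 over the brightest bin, of which 48.6% did. In the brightest bin alone, the 22 members had a median of 0.04 with 13 above 0. Of these 22, 13 had signals within 10% of each other on both arrays, or 59.1%, against 49.4% of all genes in the bin. Ratios beyond the robust SD of their bin were seen for 9 of 34 members, or 26.5%, against 33.5% of genes above the median signal. Of the members 7 were higher and 2 lower, and of the genes 15.2% were higher and 18.3% lower.

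**Figure D1:**
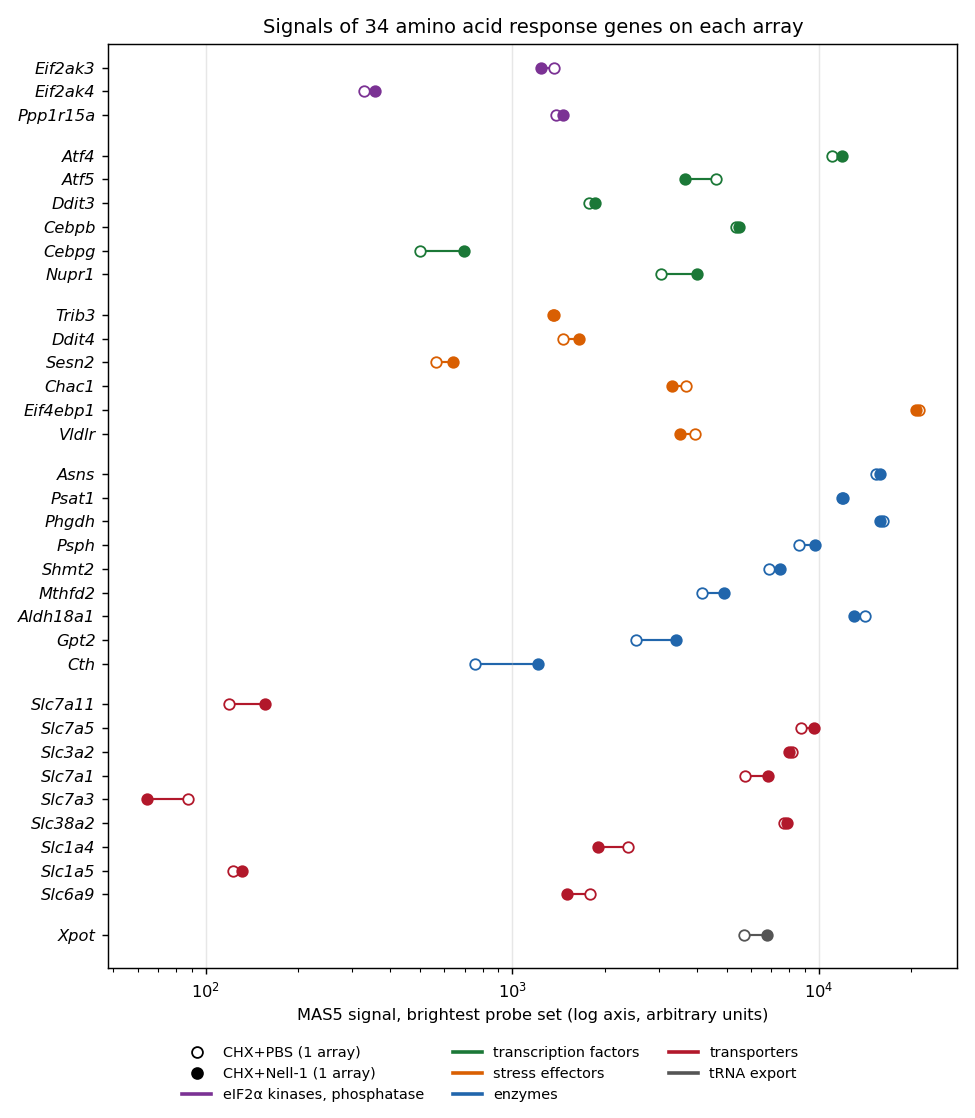
MAS5 signal of the brightest probe set of each of 34 members (log axis, arbitrary units), open circles for the CHX+PBS array and filled circles for the CHX+Nell-1 array, coloured by role. Most pairs of circles nearly touch, while Cth moves from 758 to 1214 and Slc7a3 from 87.5 to 64.3.

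The kinases and the phosphatase that set eIF2 phosphorylation had closely similar signals on both arrays. Eif2ak3, encoding PERK, the kinase that senses endoplasmic reticulum stress, measured 1370 with PBS and 1246 with Nell-1 (log2 ratio -0.14). Eif2ak4, encoding GCN2, the kinase that senses uncharged tRNA, measured 328 and 357, a log2 ratio of 0.12. Ppp1r15a, encoding GADD34, which returns eIF2 to its unphosphorylated form, measured 1388 and 1463, a log2 ratio of 0.08. All 3 ratios were smaller than the robust SD at their signal.

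Among the 6 transcription factors, Atf4 itself barely differed. On the brightest probe sets, Cebpg and Nupr1 were higher and Atf5 lower by more than the robust SD. Atf4 measured 11022 with PBS and 11908 with Nell-1 (log2 ratio 0.11), and its second bright probe set gave 0.06. Ddit3, encoding the stress factor CHOP, measured 1781 and 1861, a log2 ratio of 0.06. Cebpb, a C/EBP partner of ATF4, measured 5373 and 5476, and its log2 ratio of 0.03 became -0.004 after quantile normalization. Its second probe set read 1902 and 1483, a log2 ratio of -0.36, so the Cebpb probe sets disagreed in sign.

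Cebpg, another C/EBP family partner of ATF4, measured 502 with PBS and 696 with Nell-1, or 1.39-fold higher. Its second probe set went the same way with a log2 ratio of 0.21, within the robust SD of 0.33 at that signal. Nupr1, a small stress-induced chromatin protein, measured 3048 and 4017, 1.32-fold higher, and 1825 and 2661 on its other probe set, 1.46-fold higher. The name suffixes of the Nupr1 probe sets (_a_at and _x_at) mark probes shared between transcripts, and Nupr1 has no unshared probe set. Both genes thus gave the same sign on each probe set above the median signal. Atf5, a factor related to ATF4, measured 4618 and 3647, 1.27-fold lower, on its only probe set.

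Effectors and feedback genes of the response had a median log2 ratio of -0.004, with 3 above 0 and 3 below. Trib3, a pseudokinase that restrains ATF4 signalling, measured 1354 with PBS and 1371 with Nell-1, and both of its probe sets lay between 0.02 and 0.06. Chac1, which degrades glutathione, measured 3679 and 3327, a log2 ratio of -0.14. Ddit4, an inhibitor of the growth kinase complex mTORC1 also called REDD1, measured 1469 and 1648, a log2 ratio of 0.17. None of these exceeded the robust SD of its bin.

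Sesn2, a leucine sensor that also restrains mTORC1, measured 564 with PBS and 643 with Nell-1 (log2 ratio 0.19), and -0.12 on its second probe set. Eif4ebp1, the translation repressor that mTORC1 phosphorylates, measured 21191 and 20803, a log2 ratio of -0.03 that became 0.03 after median centring. Its other probe sets ran down to -0.24. Vldlr, a lipoprotein receptor induced under stress, measured 3941 and 3534, a log2 ratio of -0.16. Its 6 probe sets, all brighter than the median, split into 2 above 0 and 4 below, from -0.20 to 0.28. The 6 genes of this group all stayed within 1.5-fold on every probe set.

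The 9 measured biosynthetic enzymes had a median log2 ratio of 0.12, and 6 lay above 0. Cth, encoding cystathionine gamma-lyase, which makes cysteine, measured 758 with PBS and 1214 with Nell-1. That is 1.60-fold higher and a log2 ratio of 0.68, against a robust SD of 0.28 at this signal. The gene has 1 probe set, so its ratio has no second reading on these arrays. Gpt2, a mitochondrial alanine aminotransferase, measured 2531 and 3430, 1.36-fold higher. Its 4 probe sets were all above 0, but only the brightest pair reached 0.42 to 0.44 and the others gave 0.17 and 0.08. The name suffix of that pair (_s_at) marks probes shared between transcripts. The others are unshared and lay within the robust SD of their bins.

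Serine synthesis enzymes differed by at most 12.5% between the arrays. Phgdh, the first enzyme of that pathway, measured 16213 with PBS and 15822 with Nell-1, and the log2 ratio of -0.04 became 0.02 after median centring. Psat1, the second enzyme, measured 11978 and 11904, a log2 ratio of -0.01 that became 0.05 after median centring. Psph, the last enzyme, measured 8615 and 9688, a log2 ratio of 0.17.

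The folate enzymes of mitochondria, of which Shmt2 uses serine, read slightly higher. Shmt2 measured 6897 with PBS and 7494 with Nell-1 (log2 ratio 0.12), with 0.04 to 0.24 over its 4 probe sets. Mthfd2 measured 4159 and 4892, a log2 ratio of 0.23, and its second probe set gave 0.20. Mthfd2 was the one of this pair beyond the robust SD of 0.21.

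Asns, encoding asparagine synthetase and the classical reporter of the response, measured 15369 with PBS and 15785 with Nell-1. Its log2 ratio was 0.04, and -0.05 on its second probe set. Aldh18a1, which starts proline synthesis, measured 14112 and 13031, a log2 ratio of -0.11. Its 5 probe sets disagreed most among the enzymes, from -0.58 to 0.49, with 4 below 0. Both extremes came from probe sets with the suffix _x_at, which also marks shared probes. Its unshared probe set gave -0.15.

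Amino acid transporters had a median log2 ratio of 0.03, with 5 above 0 and 4 below, and none reached 1.5-fold on the brightest probe set. Slc7a1, the cationic amino acid transporter CAT-1, measured 5759 with PBS and 6802 with Nell-1 (log2 ratio 0.24), and 3430 and 4161 on the next probe set, 0.28. Its dim last probe set read 30.2 and 116, a log2 ratio of 1.95. Slc7a3, a related cationic transporter, measured 87.5 and 64.3, a log2 ratio of -0.44 within the robust SD of 0.62 at that signal.

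The heterodimer that exchanges large neutral amino acids was similar on both arrays. Its light chain Slc7a5 measured 8767 with PBS and 9612 with Nell-1 (log2 ratio 0.13). Its heavy chain Slc3a2 measured 8187 and 7995, a log2 ratio of -0.03 that became 0.02 after median centring. Slc7a11, the cystine transporter that shares this heavy chain, measured 119 and 156, 1.30-fold higher but within the robust SD of 0.43.

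Among the sodium-coupled transporters, Slc1a4 and Slc6a9 read lower with Nell-1. Slc1a4, which carries alanine, serine and cysteine, measured 2381 with PBS and 1897 with Nell-1, or 1.25-fold lower, with -0.33, -0.30 and -0.02 over its 3 probe sets. Slc6a9, the glycine transporter GlyT1, measured 1797 and 1509, a log2 ratio of -0.25, and -0.05 on its second probe set. Slc1a4 was beyond the robust SD of its bin and Slc6a9 was within it.

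Slc38a2, the transporter SNAT2 that is known to be induced by amino acid starvation, measured 7698 with PBS and 7883 with Nell-1 (log2 ratio 0.03). Its dimmer probe sets read higher, at 0.57 (631 and 935) and 0.27 (223 and 268). Slc1a5, the glutamine transporter ASCT2, measured 123 and 132, a log2 ratio of 0.10. Xpot, which exports tRNA from the nucleus, measured 5717 and 6800, 1.19-fold higher. Its 3 probe sets above the median signal lay close together, from 0.25 to 0.32.

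**Figure D2:**
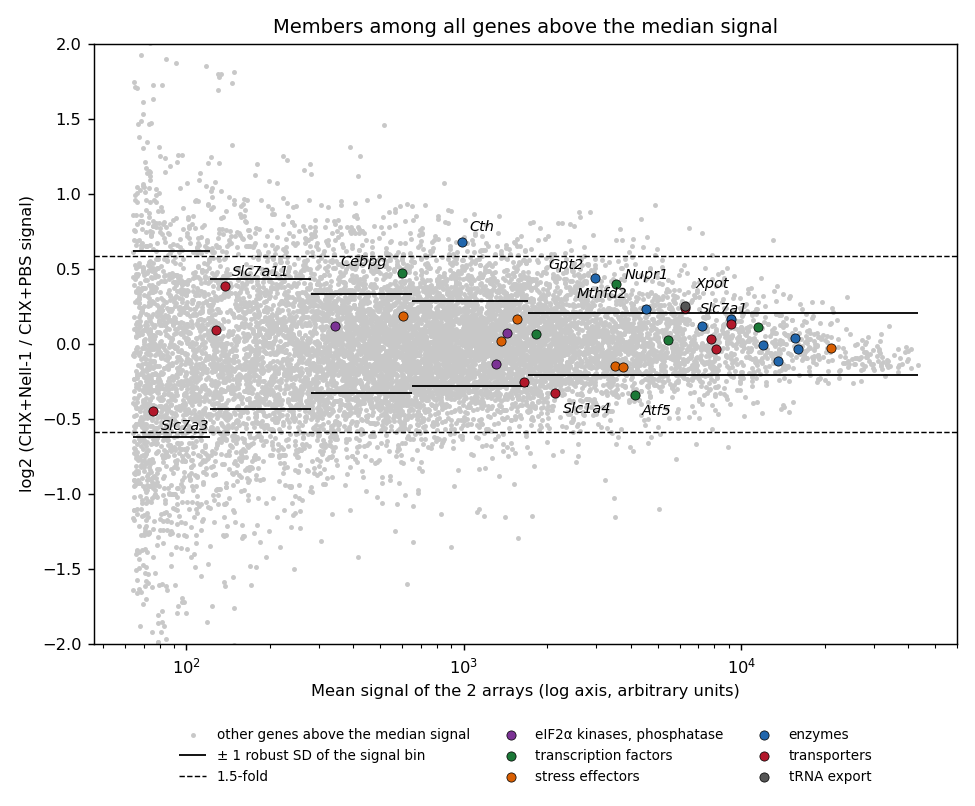
Log2 ratio of CHX+Nell-1 over CHX+PBS against the mean signal (log axis) for genes above the median signal, members coloured by role, 53 other genes lying outside the drawn range of -2 to 2. Dashed lines mark 1.5-fold and solid lines the robust SD of each signal bin on either side of 0; Cth at 0.68 is the 1 member outside the dashed lines.

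The other probe sets of the same genes give a second reading of the same 2 RNA samples, without replacing a replicate. The 34 members had 81 probe sets, 72 of them above the median signal. Of 38 further probe sets above the median signal, 23 were above 0, their median log2 ratio was 0.06, and 1 passed 1.5-fold, the dim Slc7a1 one. That probe set cleared the median of 64.3 through its Nell-1 signal alone (30.2 with PBS). Of the 37 that were above it on both arrays, 22 were above 0, their median was 0.06, and 0 passed. Of 20 members with at least 2 such probe sets, 14 had the same sign on all of them and 6 did not. The brightest pair agreed in sign for 16 of the 20, beside 68.6% of 5195 genes and 76.4% of the 1811 whose brightest probe set was in the top bin. The 6 members with mixed signs were Cebpb, Sesn2, Vldlr, Asns, Phgdh and Aldh18a1. The range over the probe sets of a member had a median of 0.21, as large as the robust SD of the top bin.

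**Figure D3:**
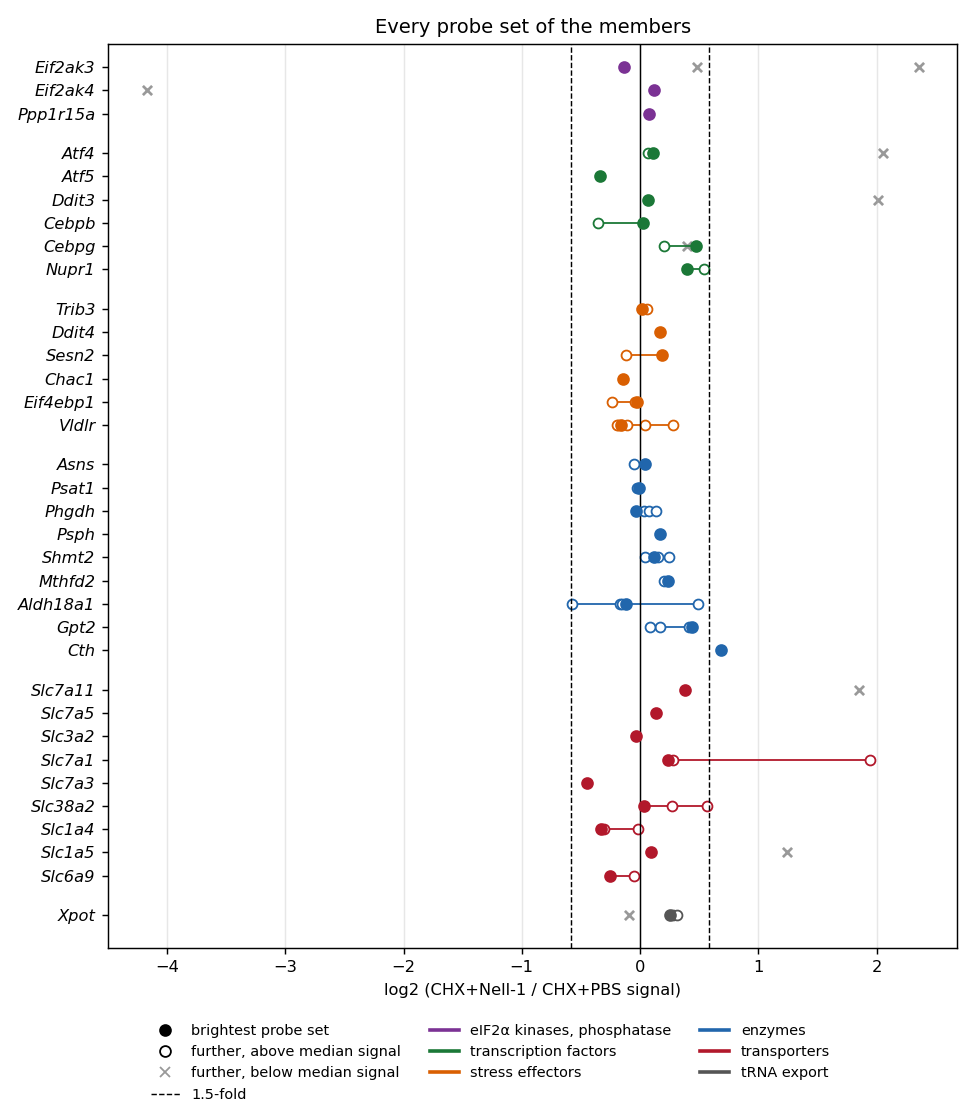
Log2 ratio of every probe set of the members, filled circles for the brightest, open circles for further ones above the median signal and grey crosses for those below it, dashed lines at 1.5-fold. Most circles lie near 0, and those outside the dashed lines are Cth at 0.68 and the dim Slc7a1 probe set at 1.95. The crosses spread from -4.17 to 2.36.

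Members with the composite site in the printed stretches did not share a direction. The 7 of them that were measured had a median log2 ratio of 0.02, from -0.33 for Slc1a4 to 0.40 for Nupr1, with 4 above 0. The 22 measured members with a window and no match had a median of 0.09, from -0.34 to 0.47. The ranges overlapped almost wholly. The 5 members without a window could not be classed in this way. Among them were Cth (0.68) and Slc7a3 (-0.44), the members with the highest and lowest log2 ratios.

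Other genes of the pathway were read from 5 further lists. Their counts past 1.5-fold stand beside the 12.1% of genes above the median signal that passed either way. Of 19 measured cytosolic tRNA synthetases, which charge tRNAs and include several ATF4 targets, 1 was at least 1.5-fold higher and none lower, with a median log2 ratio of 0.12 and 13 above 0. Tars, the threonine enzyme, measured 2106 with PBS and 3300 with Nell-1, or 1.57-fold higher on its only probe set above the median signal. Eprs, which charges glutamate and proline tRNAs, measured 2639 and 3809, 1.44-fold higher, with smaller ratios of 0.11 to 0.27 on its other probe sets.

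Genes of eIF2 and its regulators had the highest median of these lists. Of 14 measured, 9 were above 0, the median log2 ratio was 0.31, and 1 passed 1.5-fold. The 5 below 0 were Gcn1 (-0.30), Ppp1r15b (-0.15), Eif2b2 (-0.15), Eif2ak1 (-0.06) and Eif2b4 (-0.03). Further probe sets above the median signal were also below 0 for Eif2b2 (-0.63 and -0.51). For Gcn1 and Ppp1r15b they were above 0 (1.15 and 1.44), and for Eif2ak1 they were mixed. Eif2s2, the beta subunit of eIF2, measured 4779 with PBS and 8162 with Nell-1, or 1.71-fold higher, and its 4 further probe sets gave 0.55 to 0.82. Eif2s3x, the gamma subunit, measured 4193 and 6168, 1.47-fold higher, and its 2 further probe sets gave 0.48 and 0.52. These 2 subunit genes therefore read higher with Nell-1 on every probe set brighter than the median. Eif2s1, the gene of the alpha subunit, was not analysed here. Whether Eif2s3x probes also read its Y-linked copy was not tested.

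Genes of the other branches of the endoplasmic reticulum stress response, which run through IRE1 and ATF6, had a median log2 ratio of 0.01. The 19 genes are targets and the genes of both sensors, and none reached 1.5-fold. The largest were Dnajc3, a co-chaperone that inhibits PERK and is in the eIF2 list too, at 0.49 (738 and 1039), and Ern1, encoding IRE1, at -0.41 (813 and 613). Of 18 other ATF4-linked genes, 1 was past 1.5-fold, Fgf21, a stress hormone whose signals of 9.96 and 77.2 have a mean below the median signal. Above that median, the largest were Aldh1l2, a mitochondrial folate enzyme, at 0.50 (3885 and 5508) and Shmt1, a cytosolic serine enzyme, at 0.49 (466 and 653). Further Shmt1 probe sets disagreed, from -0.28 to 1.16. Their list had a median of 0.03.

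Of 20 genes of mTORC1 and amino acid sensing, 1 was higher and 1 lower by 1.5-fold, with a median log2 ratio of -0.02. Both code for parts of the GATOR2 complex, which relays amino acid supply to mTORC1. The other GATOR2 genes in the list lay between -0.10 and 0.11 on their brightest probe sets. The 2 genes past 1.5-fold were in a signal bin where 9.30% of probe sets passed. Mios measured 278 with PBS and 533 with Nell-1, or 1.92-fold higher, though 0.22 on its other probe set. Wdr59 measured 507 and 315, 1.61-fold lower on its only probe set above the median signal. The 9 reference genes had a median of 0.02, with the largest ratios at Tfrc (0.58), for iron uptake, and Hprt (0.34), for purine salvage.

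**Figure D4:**
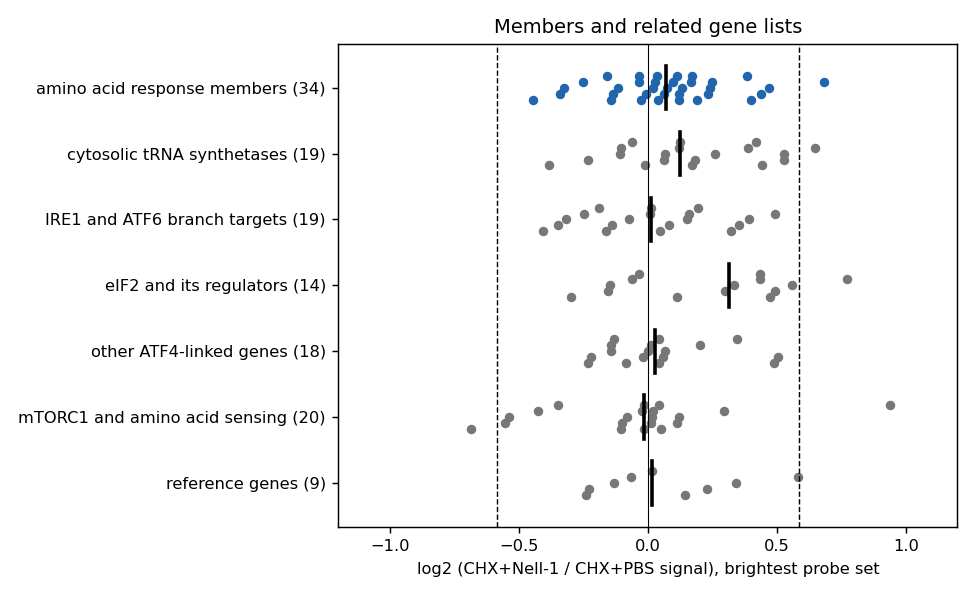
Log2 ratio of CHX+Nell-1 over CHX+PBS for each gene above the median signal in the members and 6 other lists, number measured in brackets, black bars for list medians over all measured genes and dashed lines for 1.5-fold. The eIF2 list has the highest median at 0.31 and the members lie around 0.07; Fgf21, below the median signal, is not drawn.

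A few facts of the whole series bear on these values. Added RNA controls differed between the arrays: all 24 poly-A spike-in probe sets were lower on the Nell-1 array, with a median log2 ratio of -0.49. All 18 hybridisation spike-in probe sets were lower on it too, with a median of -0.18. Their part in the members' ratios was not tested. Of 9 chondrocyte markers 7 lay above the median signal, including Sox9, Col2a1 and Acan, while Comp and Matn1 lay below it. Above it were 2 of 5 measured haematopoietic markers (Cd68, 68.0 and 90.0, and Laptm5, 209 and 147), 2 of 5 skeletal muscle markers (Acta1, 141 and 107, and Des, 224 and 91.7) and 2 of 5 epithelial markers (Epcam, 466 and 370, and Krt5, 102 and 61.0). Above it were 0 of 5 endothelial markers. Higher with Nell-1 were 3 of 5 haematopoietic, 0 of 5 muscle, 2 of 5 epithelial and 2 of 5 endothelial markers. Their summed signals went from 304 to 289, from 530 to 303, from 676 to 537 and from 174 to 80.1, in that order. Laptm5 carries most of the haematopoietic sum, and its second probe set had a log2 ratio of 1.33. Both samples were cultures of the ATDC5 cell line, so these marker signals were not read as shares of cell types. Whether any other cells were present, or played a part in the members' values, was not tested. Fewer cells and less RNA per cell cannot be told apart in such samples.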

How the data were processed

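Total RNA of 1 culture sample per group was hybridised to 1 array each. The deposited values are intensities, linear MAS5 signals per probe set; per the submitters' processing notes, Affymetrix Expression Console and MAS5 made them, with no version given there. Both deposited intensity columns had a 2% trimmed mean of 500.0, so a common scale had been set. Detection calls were not used here.

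Of 45101 probe sets, 64 controls were kept apart; 34945 of the rest had 1 gene symbol in the platform annotation, giving 18193 genes. All 34 member symbols matched a RefSeq gene table by gene ID.

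Log2 ratios, counts past 1.5-fold, medians and robust SDs in 10 signal bins were computed (Python 3.11.15, numpy 2.4.6, pandas 2.3.3, statsmodels 0.14.6 for loess). The ratios and their rescalings, with the added and floor values, were tested on simulated arrays with 2-fold differences planted at bright signals. Other probe set choices, list medians and dim signals were not part of that test. With 1 array per group no p-value, standard error or interval is given, and the number of arrays limits the precision. The alternatives were 4 rescalings, an added or floor value at the 25th percentile of signal, signal filters, other probe set choices and a 2-fold threshold. The members and lists were chosen with earlier results of these data known. All members were named, plus, in each pathway and reference list, the 2 genes brighter than the median signal that differed most, and any list gene behind a count of 5 or fewer. The chondrocyte markers named were picked after their values were seen.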

Additional observations from a re-analysis of the deposited data

How the results depend on the processing

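Each group has 1 array, so no replicate could be left out. No paired analysis was possible because each group holds 1 sample. The members' median log2 ratio of 0.07 lay between 0.05 and 0.13 over 11 alternatives. The count past 1.5-fold, 1 member higher and 0 lower, was the same under median centring, loess, quantile normalization, the added value and the filter at the 75th percentile, which left 30 members. The floor and the filter at the median signal could alter no member, and the repeated trimmed mean shifted ratios by -0.0007, so these say nothing about stability. With the mean over all probe sets it was 8, with 7 higher and 1 lower, because dim probe sets entered. With the mean over probe sets above the median signal it was 2, both higher (Cth and Slc7a1, the latter through a probe set above that median by its Nell-1 signal alone). With the brightest unshared probe set, which 28 members have, it was 2, with 1 higher and 1 lower, the latter a dim Eif2ak4 probe set at -4.17. All probe sets of Atf5, Nupr1, Trib3, Psat1, Phgdh and Slc3a2 are shared by their suffix, so these genes have no such check. At 2-fold the count was 0, with 0 higher. Of 300 recomputed member ratios 166 differed from the main one by over 0.001, and 154 of these moved by less than the robust SD. Signs changed in some alternative for 9 members. Over 11600 genes brighter than the median, 529 were past 1.5-fold higher and 874 lower, against 671 and 735 after median centring, which shifts every ratio up by 0.06. The eIF2 list's median stayed between 0.24 and 0.45. Low signal over background limits the 9 probe sets of members below the median signal.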

Other observations

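Probe sets of the members that lay below the median signal spread more widely than the bright ones, as noticed after their values were seen. Dim probe sets in general did so too. Between 53.8% and 77.9% of all probe sets passed 1.5-fold in each signal bin below the median. The members had 9 such probe sets, and 7 of them were above 0, against 44.7% of all 14862 named probe sets below the median signal. At least 1.5-fold higher were 5, and 1 was lower, against 29.0% and 37.3% of those 14862. The number past 1.5-fold either way, 6 of 9, does not set the members apart from other dim probe sets. Eif2ak3 read 4.05 with PBS and 20.8 with Nell-1, Atf4 6.74 and 28.0, and Ddit3 17.3 and 69.7. Slc7a11 read 14.5 and 52.6, and Slc1a5 16.0 and 37.9. Eif2ak4 went the other way, at 35.1 and 1.95. The brightest probe sets of the same 6 genes had log2 ratios from -0.14 to 0.38. Ratios at such signals scatter widely, and these 6 were picked as past 1.5-fold. A comparison with the robust SD of their own bin therefore favours large ratios. Of the 6, 4 exceeded it, which is also 4 of all 9. How often all probe sets this dim exceed these robust SDs was not computed. Those SDs were 2.23 for Atf4 and Eif2ak4 (log2 ratios 2.06 and -4.17), 1.85 for Eif2ak3 (2.36), 1.49 for Slc7a11 and Slc1a5 (1.86 and 1.24) and 0.93 for Ddit3 (2.01).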
